A study of Danio rerio with 6 samples.

Results

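The anterior pituitary, or adenohypophysis, is the gland below the hypothalamus that secretes the peptide hormones controlling growth, metabolism, stress, pigmentation and salt balance. In zebrafish it forms from a small placode of ectoderm at the front of the head. Fgf3 and Hedgehog signals from neighbouring tissue pattern that placode, and it is one of the smallest organs of the embryo. Its lactotropes make prolactin, its corticotropes and melanotropes cleave pro-opiomelanocortin into adrenocorticotropic and melanocyte-stimulating hormones, its somatotropes make growth hormone, and its thyrotropes make thyroid-stimulating hormone. Of this programme, 6 genes were examined: prl, pomca, gh1, tshba, cga and pou1f1. They were the rows of the count table whose symbol equals one of these names, and each name matched 1 row, so the set held 6 of 32057 genes.

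The counts came from poly-A RNA sequencing of single whole zebrafish embryos at 30 hours post fertilisation (hpf). There were 3 wild-type embryos and 3 embryos labelled 3etv, which the series title describes as Pea3 triple mutants. Pea3 factors are ETS transcription factors that act downstream of fibroblast growth factor (FGF) signalling. The labels name neither the 3 mutated genes and their alleles nor the strain, parents or clutch of any embryo, so a family difference and genotype cannot be told apart. The titles number the embryos of each group in the same way, and values are given in the order of those numbers. Counts in genes ran from 17570505 to 25512862 per library, and every mutant library was shallower than every wild-type library. The Pea3 genes served as a check of the labels: edgeR called etv5b, etv5a and etv4 lower in mutants, by log2 fold changes of -1.34, -1.01 and -0.48, and did not call etv1, at 0.28. With no other source for the embryos given, p-values measure only the spread between these 6 samples.

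All 6 pituitary genes were close to the limit of detection in whole embryos. Together they held 88 counts in the wild types and 73 in the mutants. Scaled to library size (CPM, with TMM factors), their summed level was 1.06, 1.32 and 1.34 CPM in the wild types and 0.858, 1.65 and 1.53 CPM in the mutants. These ranges overlapped, with the lowest and the highest library both among the mutants. A count of 1 was worth between 0.0389 and 0.0589 CPM, and the floor used here, 3 counts per library, lay between 0.117 and 0.177 CPM. Only prl and pou1f1 passed edgeR's filter on low counts, and pomca, gh1, tshba and cga did not. In libraries of whole embryos, fewer cells of a type and less RNA per cell cannot be told apart.

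Neither of the tested genes was called in edgeR's quasi-likelihood test at a Benjamini-Hochberg adjusted p under 0.05, and 0 of the 2 had an unadjusted p under that value. The DESeq2 Wald test and limma-voom also called 0 of the 2. Over all 19889 tested genes 26% were called, 12.6% higher and 13.5% lower in mutants. The share of all genes at an unadjusted p under 0.05 is not given, so counts at that threshold, here and below, have no background. Fitted without the low-count filter, edgeR again called 0 of the 6 members, with 1 at an unadjusted p under 0.05, and the DESeq2 Wald test called 0 of 3. The DESeq2 fit gave no adjusted p for gh1, tshba and cga, so these 3 could not be called in it. The limma-voom fit without the filter, added after the data were seen, called 1, cga. The share of all genes called in that limma-voom fit is not given here, so its cga call has no background. Without the filter edgeR called 20.9% of all genes with any count, but 4.41% of the 7914 genes that the filter removes.

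**Figure D1:**
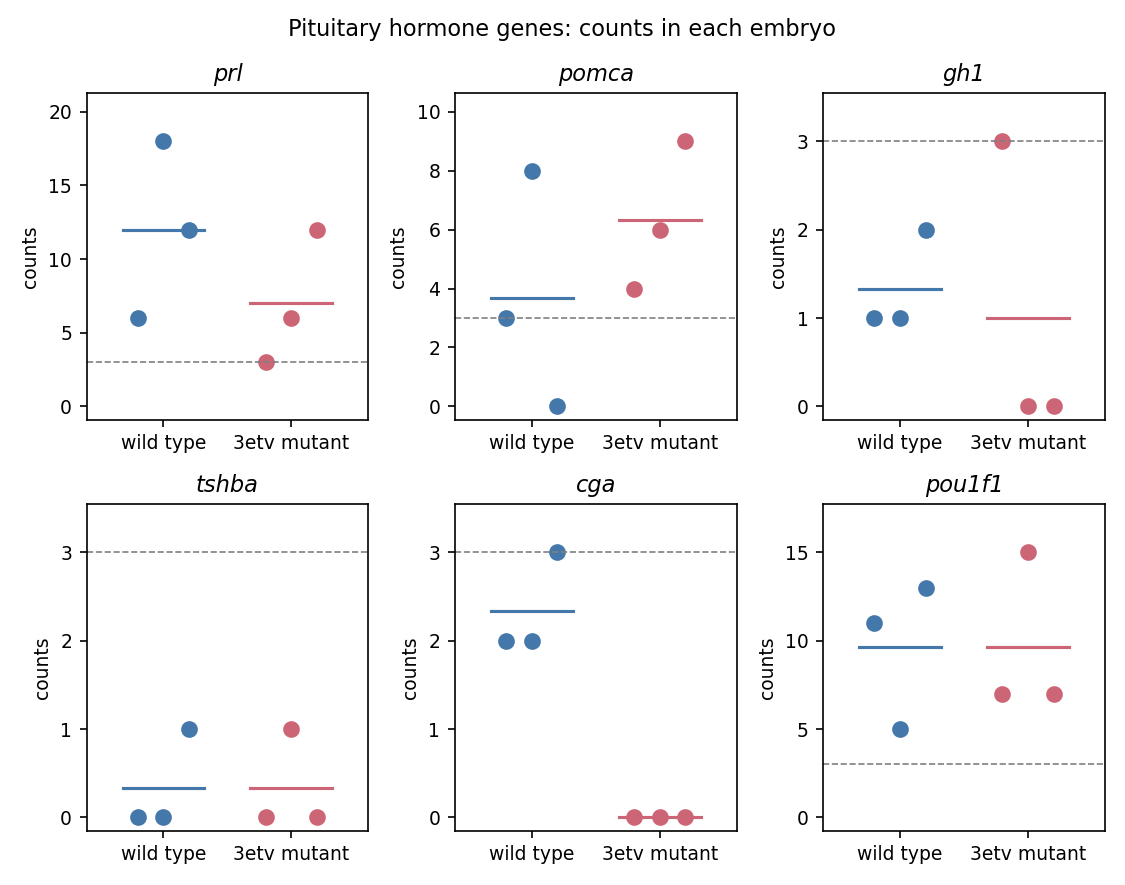
Counts of the 6 pituitary genes in each embryo (points, in the order of the titles) and the group mean (bar), with the floor of 3 counts as a dashed line. The groups overlap for prl, pomca, gh1, tshba and pou1f1, while cga has 2 or 3 counts in each wild type and 0 in each mutant.

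The factor common to lactotropes, somatotropes and thyrotropes was present in every embryo. The gene pou1f1 (ENSDARG00000058924) encodes the POU-homeodomain protein Pit-1, which those 3 lineages require and which activates the prolactin, growth hormone and thyrotropin beta genes. Its counts were 11, 5 and 13 in the wild types and 7, 15 and 7 in the mutants. The second embryo of each group stood apart, in opposite directions: it was the lowest wild type and the highest mutant, and the groups overlapped. Wild types averaged 0.421 ± 0.198 CPM and mutants 0.540 ± 0.298 CPM (SD, n = 3 each). The log2 fold change was 0.35 ± 0.52 (SE), with a 95% interval from -0.77 to 1.48 (edgeR adjusted p = 0.657). Its sign turned without the second wild-type embryo, at -0.01, and without the second mutant embryo, at -0.16. The interval leaves room for an increase of more than 1 on the log2 scale. For a single embryo the counting error alone is wide: an exact 95% Poisson interval for the 5 counts of the second wild type runs from 1.62 to 11.7, and for the 15 counts of the second mutant from 8.40 to 24.7.

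Prolactin is the main product of the first lactotropes and regulates salt and water balance in fish. The gene prl (ENSDARG00000037946) had 6, 18 and 12 counts in the wild types and 3, 6 and 12 in the mutants. It too was detected in every embryo, and the first mutant embryo sat at the floor while the third mutant embryo matched the third wild-type embryo in raw count. Wild-type embryos averaged 0.498 ± 0.213 CPM and mutants 0.387 ± 0.253 CPM (SD, n = 3 each), and the means lay closer together than 1 SD of each group. The log2 fold change was -0.40 ± 0.54 (SE), with a 95% interval from -1.56 to 0.77 (edgeR adjusted p = 0.629). Without the first mutant embryo it was 0.02. The exact Poisson interval of its 3 counts there runs from 0.619 to 8.77, and that of the 18 counts in the second wild type from 10.7 to 28.4.

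The precursor gene pomca (ENSDARG00000043135) is expressed in pituitary corticotropes and melanotropes and also in hypothalamic neurons, which a whole-embryo library cannot separate. It had 3, 8 and 0 counts in the wild types and 4, 6 and 9 in the mutants. All mutants were above the floor and 1 of the 3 wild types was, but the second wild-type embryo lay within the mutant range of counts. Wild types averaged 0.150 ± 0.156 CPM and mutants 0.349 ± 0.145 CPM (SD, n = 3 each). A two-sided exact permutation test of the CPM gave p = 0.2, where 0.1 is the smallest that 3 against 3 allows. Summed over each group, the ratio of mutant to wild-type counts per effective library was 2.21, with an exact 95% interval from 1.0 to 5.14 that covers counting error only. Without the low-count filter the edgeR adjusted p was 0.348, so the difference did not pass once the spread between embryos was counted.

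Growth hormone, the product of gh1 (ENSDARG00000038185), was at or below the floor in all 6 embryos. Its counts were 1, 1 and 2 in the wild types and 3, 0 and 0 in the mutants. The ratio of summed counts was 0.960, with an exact counting interval from 0.141 to 5.68, and the edgeR adjusted p without the filter was 0.979. No difference of gh1 was detectable at this depth, and all of its mutant counts came from the first embryo.

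Thyroid-stimulating hormone is a dimer of a beta chain, encoded by tshba, and the alpha chain that it shares with the gonadotropins, encoded by cga. The beta-chain gene tshba (ENSDARG00000033726) had 0, 0 and 1 counts in the wild types and 0, 1 and 0 in the mutants. With 1 count in each group, the ratio of summed counts was 1.28 and its exact counting interval ran from 0.0163 to 101, so nothing can be said of its direction.

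The alpha-chain gene cga (ENSDARG00000040479) was the only one of the 6 whose groups did not overlap. It had 2, 2 and 3 counts in the wild types, or 0.0920, 0.0778 and 0.130 CPM, and 0 counts in each of the 3 mutants. The exact 95% Poisson interval of a count of 0 runs to 3.69 counts. Even the floor of 3 counts is worth 0.151, 0.177 and 0.164 CPM in those mutant libraries. That is above every wild-type value, so no single mutant library could show a loss of this size. Both groups were at or under the floor and no fold change is given. Summed over the groups, the ratio of 0 mutant counts to 7 wild-type counts had an exact 95% interval from 0 to 0.888, for counting error only. The exact permutation test gave p = 0.1, the smallest the design allows.

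Calls for cga depended on the method: without the low-count filter the adjusted p was 0.124 in edgeR and 0.0366 in limma-voom, and over the 11 of its 12 alternatives that gave one it ran from 0.0366 to 0.267. Other genes of that depth gave the background. Of the 272 genes in the table with 7 counts in all, 11% had none in any mutant, and in 8.09% each mutant was below each wild type. Among all genes that failed the filter, 8.07% were lower in every mutant and 15.9% did not overlap in either direction.

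The order of the embryos differed between members. The second wild type was the highest wild type for prl and pomca and the lowest for pou1f1. Among mutants, the first was the lowest for prl and pomca, the only one with gh1 counts, and among the lower pair for pou1f1, whose highest mutant was the second. These orders rest on counts of 18 or fewer and are given as a description.

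Other hormone genes of the gland were as scarce. The list held 7 of them and 6 matched a row. The follicle-stimulating hormone beta gene fshb had 0 counts in all 6 embryos, under a floor of 0.117 to 0.177 CPM per library. The luteinising hormone beta gene lhb had 1, 1 and 0 counts in the wild types and 0 in every mutant. The somatolactin genes, whose products belong to the growth hormone and prolactin family, had 3, 0 and 1 counts in wild type against 1, 1 and 2 in mutants for smtla, and 4, 2 and 1 against 4, 1 and 0 for smtlb. The second prolactin gene, prl2, had 0 counts in every wild type and 2, 0 and 2 in the mutants. None of these 5 passed the low-count filter.

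The second pro-opiomelanocortin gene, pomcb (ENSDARG00000069307), was the exception and was tested. Its counts were 20, 27 and 24 in the wild types and 19, 9 and 10 in the mutants. The second and the third mutant embryo were below all wild types in CPM, and the first mutant embryo, at 0.959 CPM, lay inside the wild-type range. Its log2 fold change was -0.55 ± 0.36 (SE) and was not called (edgeR adjusted p = 0.279). Summed over the 6 hormone rows of this list, the level was between 1.12 and 1.29 CPM in wild types and between 0.648 and 1.31 CPM in mutants.

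Transcription factors of the pituitary placode mostly had far more counts than the hormone genes, and most of them are also expressed in other tissues. The list held 29 symbols, 28 of them with a row, and 24 rows passed the filter. Of these 24, 8 were called higher and 2 lower in mutants, and 14 did not pass the test (edgeR quasi-likelihood test, adjusted p under 0.05 over all genes). The share called was 41.7%, against 26% of all tested genes, and the median log2 fold change was 0.20, against -0.01. The 26% covers tested genes of every depth. No share at the depth of this list, or of the lists below, was computed.

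The 4 factors described next are tied to the early gland and were picked after their values were seen, so they do not stand for the list. Other factors of the list were called, among them ascl1a, higher, and eya1, lower, both described below. None of the 4 was called, and whole-embryo counts do not show how much of their RNA came from the gland. The LIM-homeodomain genes, needed for the gland to survive and differentiate, overlapped between the groups. For lhx3 the counts were 34, 24 and 33 in wild types and 27, 36 and 21 in mutants, and the log2 fold change was 0.24 ± 0.33 (SE, edgeR adjusted p = 0.636). For lhx4 the log2 fold change was -0.02 ± 0.13 (SE, edgeR adjusted p = 0.945). The placodal homeobox gene pitx1 averaged 3.29 ± 0.417 CPM in wild types against 3.03 ± 0.770 CPM in the mutants (SD, n = 3 each), with no call (edgeR adjusted p = 0.763).

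The T-box gene tbx19, which activates pro-opiomelanocortin transcription in mammalian corticotropes, had 3, 3 and 1 counts in the wild types and 8, 5 and 5 in the mutants. All mutants were above all wild types, and the gene, which failed the low-count filter, was not called without the filter either (edgeR adjusted p = 0.156). As given above, 15.9% of genes that failed the filter had groups that did not overlap.

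**Figure D2:**
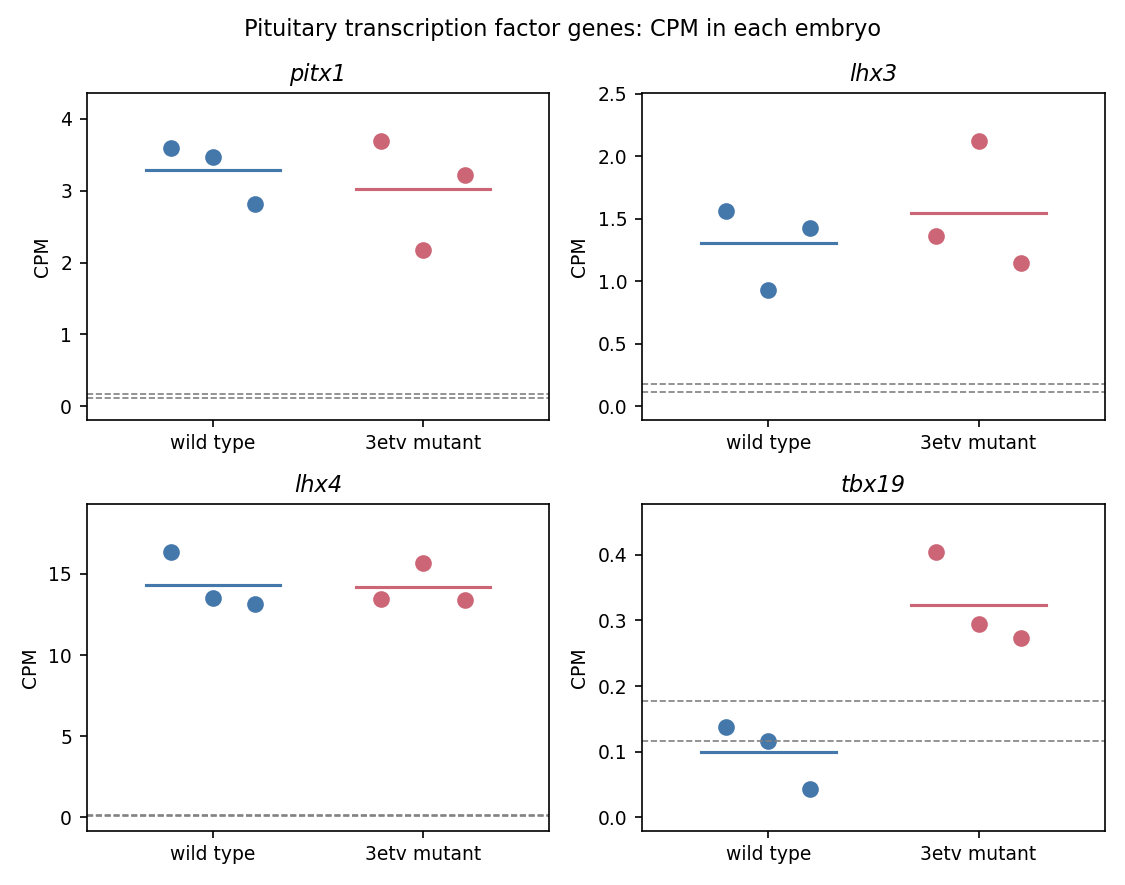
CPM of 4 pituitary transcription factor genes in each embryo (points, in the order of the titles) and the group mean (bar); dashed lines mark the lowest and highest floor of 3 counts, 0.117 and 0.177 CPM. The groups overlap for pitx1, lhx3 and lhx4, while the tbx19 points are all higher in mutants, near the floor. These 4 genes were picked after their values were seen, and other factors of the list were called.

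Most of the called factors of the list are widely used in the nervous system and sense organs. Among genes averaging 20 counts or more, the largest changes were those of six6b, an eye and hypothalamus homeobox gene, and ascl1a, a proneural gene that endocrine cells of the zebrafish pituitary need. The log2 fold change was 0.98 ± 0.14 (SE, edgeR adjusted p = 0.000468) for six6b and 0.75 ± 0.13 (SE, edgeR adjusted p = 0.00121) for ascl1a. The neurogenic genes neurod4 and insm1a rose by 0.65 ± 0.10 and 0.54 ± 0.12 (log2, SE), and the forebrain gene six3a rose by 0.63 ± 0.13. The LIM-homeodomain gene isl1, also a motor neuron and sensory neuron factor, rose by 0.36 ± 0.10 (SE, edgeR adjusted p = 0.0232), a call lost without the third wild-type embryo or without the second or the third mutant embryo (adjusted p = 0.0754, 0.0830 and 0.0849).

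Lower in mutants was eya1, a cofactor gene of cranial placodes. It fell from 112 ± 13.3 to 83.5 ± 6.51 CPM (SD, n = 3 each), a log2 fold change of -0.43 ± 0.10 (SE, edgeR adjusted p = 0.00928). The second was its placodal partner six1b, named after its values were seen, with a log2 fold change of -0.33 ± 0.10 (SE, edgeR adjusted p = 0.0324). The number of lower factors was 1 in the 5 fits that left out the second or the third wild-type embryo or one of the 3 mutants, and eya1 was called in each of them. The most abundant factor of the list, sox3, was not called (log2 fold change 0.21 ± 0.08, SE, edgeR adjusted p = 0.0824).

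**Figure D3:**
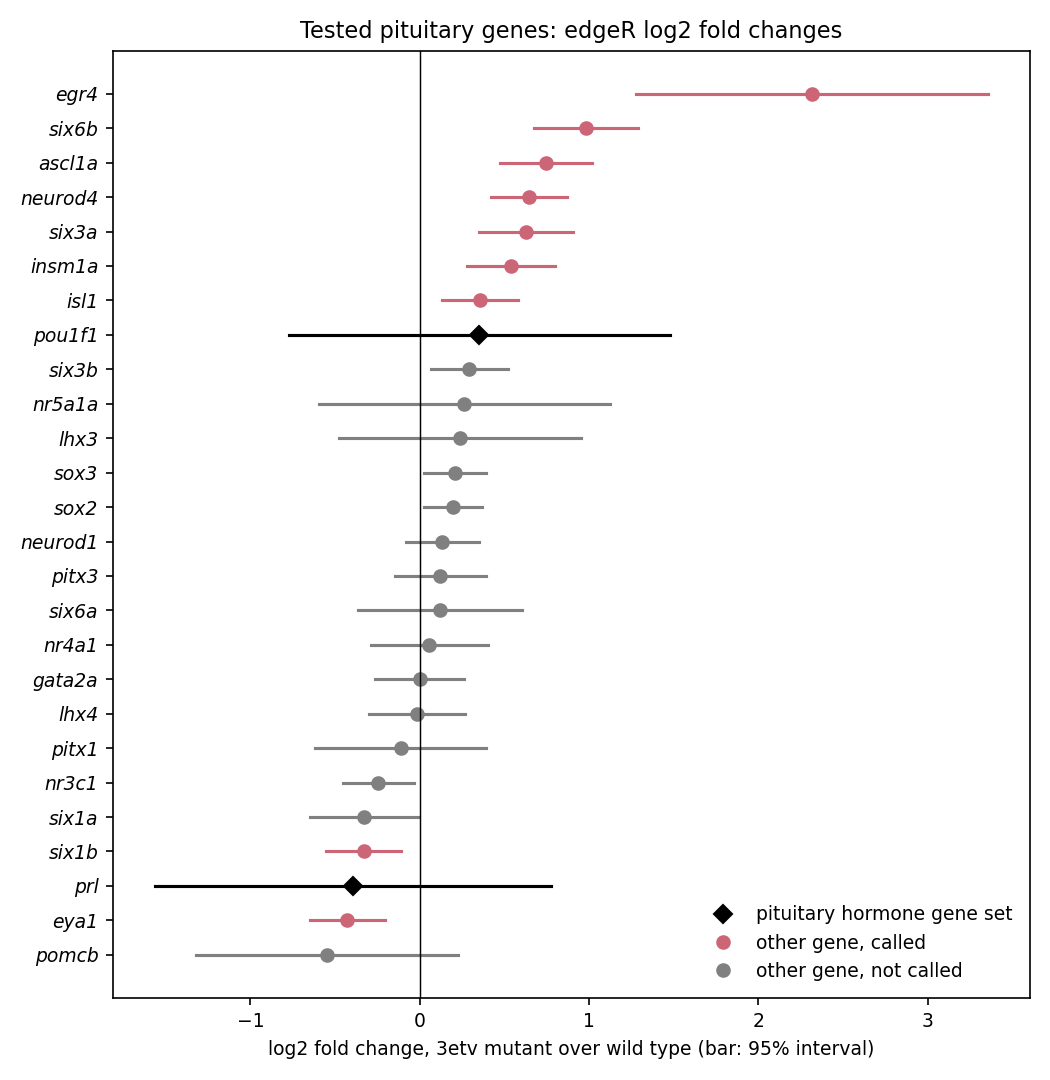
edgeR log2 fold changes of mutant over wild type (points) with 95% intervals (bars) for tested hormone and transcription factor genes. The black diamonds of prl and pou1f1 have intervals from -1.56 to 0.77 and from -0.77 to 1.48, wide beside those of factors with more counts.

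None of the 10 signalling genes that pattern the placode was called in edgeR, against 26% of all tested genes. The DESeq2 Wald test and limma-voom also called 0. Over the 14 alternative settings given below, 0 were called higher and 0 to 1 lower. At an unadjusted p under 0.05 in edgeR, 0 were higher and 2 lower, without a share over all genes to set beside them. Their median log2 fold change was -0.02. The ligand gene fgf3, which zebrafish embryos need for the gland to form, had 188, 252 and 198 counts in wild types and 146, 127 and 160 in mutants. Wild types averaged 9.01 ± 0.689 CPM and mutants 7.86 ± 0.754 CPM (SD, n = 3 each), and the groups overlapped in CPM (log2 fold change -0.20 ± 0.14, SE, edgeR adjusted p = 0.339). The Hedgehog ligand gene shha had a log2 fold change of 0.10 ± 0.09 (SE, edgeR adjusted p = 0.440), and the Hedgehog transducer smo, the most abundant gene of the list, 0.12 ± 0.08 (SE, edgeR adjusted p = 0.308).

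Markers of the hypothalamus, the brain region next to the gland and the other site of pomca expression, were also measured. Whole-embryo libraries do not show how much of the RNA of these markers came from that region. Of 12 genes 11 were tested, and 5 of these were called higher in mutants and 0 lower, with 0 lower also at an unadjusted p under 0.05 and in the DESeq2 Wald test and limma-voom. The share called was 45.5%, against 26% of all tested genes whatever their depth, and the median log2 fold change of the 11 was 0.55. The largest called changes were those of nkx2.4a (0.999 ± 0.17, SE, edgeR adjusted p = 0.00135) and the neuroendocrine factor gene otpb (0.93 ± 0.13, SE, edgeR adjusted p = 0.000285). The other called genes were otpa, lhx5 and dlx2a, at 0.55, 0.51 and 0.43. Of the 6 not called, nkx2.1 and fezf2 were at 0.08 and -0.03 (edgeR adjusted p = 0.777 and 0.836). The genes nkx2.4b, rx3 and sim1a were higher only at an unadjusted p under 0.05, and npy failed the low-count filter. The summed level of all 12 was between 138 and 157 CPM in wild types and between 199 and 215 CPM in mutants. That sum is weighted to abundant genes: otpa averaged 29.4 CPM in wild types and 42.9 CPM in mutants, and otpb 23.6 and 45.0 CPM. The pomca neurons of the hypothalamus lie beside neurons that express agrp, a melanocortin antagonist. The agrp gene, named after its values were seen, had 8, 4 and 14 counts in wild types and 13, 14 and 14 in mutants. Each mutant was above each wild type in CPM, as groups did not overlap for 42.9% of all tested genes, and it was not called (edgeR adjusted p = 0.134). The part of hypothalamic RNA in the counts of pomca and of the factors above was not tested.

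Markers of the lens, olfactory and stomodeal ectoderm, which arise from the same anterior placodal field, gave 0 calls among 10 tested genes (edgeR). Over all tested genes 26% were called. At an unadjusted p under 0.05, 2 were higher and 1 lower, and the DESeq2 Wald test and limma-voom called 0. Over the 14 alternative settings, 0 to 2 of these markers were called higher and 0 to 1 lower. The beta-crystallin gene crybb1, the most abundant of them, had a log2 fold change of 0.17 ± 0.14 (SE, edgeR adjusted p = 0.392).

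**Figure D4:**
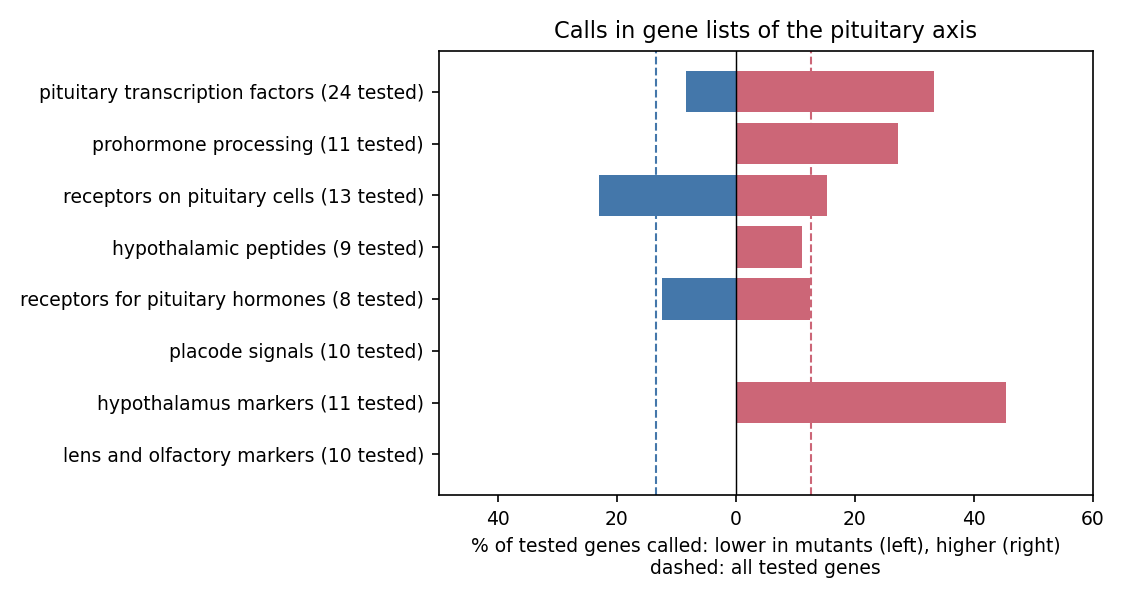
Share of the tested genes of each list that was called higher (right) or lower (left) in mutants by edgeR; dashed lines mark the shares over all tested genes, 12.6% and 13.5%. Hypothalamus markers show 5 of 11 higher and none lower, while the placode signals and the lens and olfactory markers show no call.

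The lists further from the gland are given by their counts, since their genes act in many tissues. Over all tested genes 26% were called, 12.6% higher and 13.5% lower in mutants. Of 11 tested rows for cutting and packing prohormones, 27.3% were called in edgeR, close to that share, with 3 higher and 0 lower. At an unadjusted p under 0.05, and in the DESeq2 Wald test and limma-voom, 0 were lower as well. An scg5 row that failed the filter, described below, was called lower without it. The third of the higher calls, that of another scg5 row, was made in 1 of 14 alternatives. The others were called in all 14: cpe, encoding the carboxypeptidase that trims cleaved prohormones, rose by 0.37 ± 0.08 on the log2 scale (SE, edgeR adjusted p = 0.00722), and the granin gene scg2b by 0.68 ± 0.12 (SE, edgeR adjusted p = 0.00201). Of 9 tested genes for hypothalamic releasing and inhibiting signals, 1 (11.1%) was called, and it was higher. All but th, a gene of dopamine synthesis, encode peptides. The called gene was a peptide gene. It was adcyap1b, encoding the neuropeptide PACAP, at 0.52 ± 0.11 (SE, edgeR adjusted p = 0.00403).

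Receptors through which such peptides and dopamine reach pituitary cells went both ways, with 2 of 13 tested rows higher and 3 lower. The share called was 38.5%, against 26% of all tested genes. The thyrotropin-releasing hormone receptor gene trhra had 63, 103 and 79 counts in the wild types and 29, 29 and 9 in the mutants. All mutants were below all wild types in CPM, as groups did not overlap in either direction for 42.9% of all tested genes. The log2 fold change of trhra was -1.50 ± 0.34 (SE, edgeR adjusted p = 0.00713). Of the 2 rows named adcyap1r1a, a PACAP receptor gene, ENSDARG00000105201 was higher by 0.63 ± 0.13 (SE, edgeR adjusted p = 0.00437) and the other was not called.

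Of 8 tested genes for the receptors of pituitary hormones in target tissues, 1 was higher and 1 lower. The share called was 25%, against 26% of all tested genes. The gene mrap2a, encoding an accessory protein of melanocortin receptors, had a log2 fold change of 1.49 ± 0.34 (SE, edgeR adjusted p = 0.00745). The growth hormone receptor gene ghra had a log2 fold change of -1.004 ± 0.30 (SE, edgeR adjusted p = 0.0285), a call lost in 5 of the 6 refits with 1 embryo fewer, all but that without the first mutant embryo. Without the third mutant embryo the ghra value was -0.69 (adjusted p = 0.0882). The second such gene, ghrb, was not called (log2 fold change -0.22 ± 0.17, SE, edgeR adjusted p = 0.363), but was without the first wild-type embryo (-0.41, adjusted p = 0.0369).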

How the data were processed

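RNA from 6 single embryos was sequenced after poly-A selection with strand-specific libraries, per the labels' protocols. The deposited table holds raw counts per Ensembl gene; the submitters' processing notes name STAR, HTSeq and the build GRCz11, without versions. The annotation release and strand setting are not given in the sources used here. All 6 columns were matched to samples by name, after splitting 1 header cell that joins 2 names. The 5 summary lines were left out. Reads in no gene made up 53.6% to 54.3% of all reads in wild types and 55.25% to 55.4% in mutants.

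Genes were kept by filterByExpr and compared with the quasi-likelihood test of edgeR 4.0.16 (R 4.3.3) on genotype alone, with TMM factors and Benjamini-Hochberg adjustment over all 19889 tested genes. Standard errors (SE) were computed from each fold change and its F statistic. CPM is the count over the effective library. Ratios of summed counts have exact (Clopper-Pearson) 95% intervals; these and the floor of 3 counts cover counting error only, since no molecular identifiers are used. Alternatives used DESeq2 1.42.0 and limma 3.58.1. Members, lists and tests were chosen with earlier results of these data known. Genes named by rule are the 6 members, the other hormone genes, and in each list the most abundant gene and up to 8 called genes averaging 20 counts or more, by size of change. For the 2 members with most counts, the 3 genes most correlated with each are also named. Genes outside this rule were named too, among them fgf3, shha, scg5, crhr2, ghrh, ghrhra and ghrhrb. No rule set in advance chose them, and other called rows of the lists are not named. Symbols were matched ignoring case, and 7 list symbols matched no row. Tests were checked on simulated data. That check required recovery only of changed genes averaging 50 counts or more, so it does not cover the depth of prl and pou1f1. Pairs of libraries within a group differed beyond sampling noise, wild types more than mutants. Chi-square per degree of freedom ran from 20.1 to 49.0 in wild-type pairs and from 6.32 to 9.56 in mutant pairs. Some genes of the transcription factor list are in its counts but are not reported singly here, in the text or the plots. Sequences and motifs were not analysed here.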

Additional observations from a re-analysis of the deposited data

How the results depend on the processing

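The number of pituitary hormone genes called was 0 in both directions under all 14 alternative settings that each changed 1 choice. The 4 members that failed the low-count filter could not be called wherever it removed them, so this count rests mainly on prl and pou1f1. The log2 fold change ran from -1.01 to 0.0196 for prl and from -0.16 to 0.63 for pou1f1 when each embryo was left out in turn, and their adjusted p-values stayed at or above 0.297 and 0.491. A mean of at least 50 counts removed both genes and gave no value. Without the low-count filter, combined with the other settings after the data were seen, the fits that left out an embryo ran from -3.41 to 0.46 for gh1 and from -1.79 to 1.996 for tshba, crossing 0. The cga difference crossed the threshold under limma-voom, and with 0 counts in every mutant no fold change is given for it.

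Counts in the lists changed by more than 1.5 times in these settings, and the cause was not tested except that a stricter filter tests fewer genes. Without the filter, lower prohormone processing genes went from 0 to 1 and higher hypothalamic peptide genes from 1 to 2. At a mean of at least 50 counts, receptors on pituitary cells had 1 higher and 1 lower, and receptors for pituitary hormones 0 higher. With library totals in place of TMM, 1 placode signal and 1 lens or olfactory marker were called lower. Leaving out each embryo gave 1 to 3 lower factors, 1 to 2 higher peptides, 0 to 1 lower hormone receptors, 0 to 1 lower placode signals and 0 to 2 higher lens or olfactory markers. Over all genes it gave 1643 (without the third wild-type embryo) to 2266 higher, against 2502. The isl1 call was also lost with library totals (adjusted p = 0.0566).

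The labels do not say whether the shared embryo numbers pair the samples. Centred on the group means, embryos with the same number correlated across genes at -0.105, 0.184 and -0.181. Embryos with different numbers were not compared, so these values do not decide whether the samples are paired. With the number as a replicate block, 1 lens or olfactory marker was called higher, against 0 without it, and the log2 fold changes of prl and pou1f1 were -0.40 and 0.35. Depth limits all 6 members, since prl and pou1f1 had fewer than 10 counts per library on average.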

Other observations

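Some symbols of the pituitary lists sat on more than 1 row, and the rows of scg5 differed in direction. Whether reads are shared between rows with the same symbol was not tested. For scg5, encoding the chaperone of a prohormone convertase, one row (ENSDARG00000077045) had 11, 8 and 9 counts in wild types and 0 in every mutant, and failed the filter. Without the filter edgeR called it lower (adjusted p = 0.00207), as it called 4.41% of the genes that fail the filter in either direction. Each mutant was below each wild type in 8.07% of those genes. The other scg5 row (ENSDARG00000032126) had 8, 6 and 5 counts in wild types and 11, 10 and 16 in mutants and was called higher (log2 fold change 1.30 ± 0.44, SE, edgeR adjusted p = 0.0457). That call was lost in the 12 alternatives with an adjusted p other than DESeq2 size factors, among them the fit without the filter (edgeR adjusted p = 0.0836) and the DESeq2 Wald test (adjusted p = 0.146). For crhr2, a receptor gene for corticotropin-releasing peptides, 1 of 3 rows (ENSDARG00000092918) had 14, 47 and 38 counts in wild types and 0 in every mutant (edgeR adjusted p = 0.00056). The other crhr2 rows had 9, 25 and 9 against 8, 4 and 5 counts (ENSDARG00000062377) and 1, 0 and 5 against 2, 2 and 1 (ENSDARG00000103704), and neither passed the filter.

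The growth hormone-releasing hormone gene ghrh had 1, 3 and 5 counts in wild types and 38, 9 and 2 in mutants, so most of its mutant counts came from the first embryo. The ghrh groups overlapped in CPM (exact permutation test, p = 0.3). The receptor gene ghrhra had 5, 1 and 1 counts in wild types and 10, 21 and 8 in mutants. The second such receptor gene, ghrhrb, went the other way, with 4, 4 and 6 counts in wild types and 1, 0 and 2 in mutants. All of these genes failed the low-count filter. Without it the edgeR adjusted p was 0.00841 for ghrh, 0.0048 for ghrhra and 0.252 for ghrhrb. That fit called 4.41% of the genes that fail the filter, in either direction. Leaving out embryos was not run for these genes.

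As a description over 6 embryos and 15220 genes averaging 50 counts or more, the log2 CPM most like that of prl was that of mcee (Pearson r = 0.997), then CABZ01117357.1 (0.985) and zgc:113295 (0.981). For pou1f1 they were DNAH10 (0.987), mfsd13a (0.972) and scin (0.969). With 6 points and this many genes ranked, and with the counting error of prl and pou1f1, these likenesses carry no test.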
